A study of Mus musculus with 16 samples.

Results

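The genes described here are 43 named genes of the contractile apparatus and the actin cytoskeleton, chosen by name and read from the array probes whose transcript accession carries that name. All 43 had at least 1 probe that passed the signal filter, and they were tested among 15394 named genes. The cells were primary lung fibroblasts released from mouse lung by enzyme digestion, and their RNA was read on Agilent microarrays with 1 colour. There were 4 groups of 4 arrays each: cells of Meflin knockout mice (KO) with recombinant TGF-β1 at 5 ng/ml for 48 h, KO cells without the cytokine (vehicle), cells of wild type C57BL/6J mice (WT) with the same TGF-β1, and WT cells with vehicle. All groups are labelled female and 8 weeks old. Meflin, encoded by Islr, is a membrane-anchored protein of fibroblasts. The labels do not give the strain of the KO line or the deleted part of the gene. The design text speaks of 4 independent experiments per group but does not say how many mice gave cells, so p-values measure the spread between these cultures.

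Contraction of a fibroblast rests on filaments of actin that are pulled by myosin, braced by crosslinkers such as α-actinin and filamin, and anchored to the membrane at focal adhesions. When TGF-β1 turns a lung fibroblast into a myofibroblast, the cell adds smooth muscle actin and other smooth muscle proteins to this machinery. Many of these genes carry a CArG box, the site bound by serum response factor (Srf), which works with the coactivators myocardin (Myocd) and the myocardin-related factors. Those related factors are held back by unpolymerised actin and enter the nucleus when actin assembles.

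The promoters of 8 members are printed because they hold a CArG box, the letter pattern that links the actin machinery to Srf. They run 5′ to 3′ on the gene's own strand and are taken from RefSeq on the mouse build GRCm38.p6. Capitals mark the CArG box, a run of A and T bases between CC and GG, which was searched on both strands.
Srf (chr17:46556162-46556272, minus strand): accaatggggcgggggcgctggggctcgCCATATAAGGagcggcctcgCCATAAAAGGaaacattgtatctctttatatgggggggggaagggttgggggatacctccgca
Acta1 (chr8:123894775-123894885, minus strand): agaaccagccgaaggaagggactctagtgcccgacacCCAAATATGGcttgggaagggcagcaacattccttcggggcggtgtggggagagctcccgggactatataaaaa
Actc1 (chr2:114052875-114052985, minus strand): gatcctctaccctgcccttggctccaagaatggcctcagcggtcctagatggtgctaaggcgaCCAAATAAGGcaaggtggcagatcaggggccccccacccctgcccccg
Actg1 (chr11:120348495-120348605, minus strand): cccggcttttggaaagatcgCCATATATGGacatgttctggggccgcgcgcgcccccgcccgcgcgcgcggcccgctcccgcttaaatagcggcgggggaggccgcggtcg
Cnn2 (chr10:79988490-79988600, plus strand): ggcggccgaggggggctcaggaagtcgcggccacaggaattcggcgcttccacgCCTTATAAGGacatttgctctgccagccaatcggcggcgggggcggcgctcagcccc
Myl6 (chr10:128493009-128493119, minus strand): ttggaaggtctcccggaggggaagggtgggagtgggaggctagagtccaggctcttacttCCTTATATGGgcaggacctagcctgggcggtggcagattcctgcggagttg
Myl9 (chr2:156775284-156775394, plus strand): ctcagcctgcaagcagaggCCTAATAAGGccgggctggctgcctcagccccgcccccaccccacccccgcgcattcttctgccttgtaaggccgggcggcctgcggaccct
Fhl2 (chr1:43196761-43196871, minus strand): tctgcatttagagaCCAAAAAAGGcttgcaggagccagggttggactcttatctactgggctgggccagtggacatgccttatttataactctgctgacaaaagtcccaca
The Srf promoter itself held 2 boxes, at positions -82 and -62, where the annotated first transcribed base is 0. The box began at -73 in Acta1, at -47 in Actc1, at -90 in Actg1 and at -56 in Cnn2. It began at -50 in Myl6, at -161 in Myl9 and at -96 in Fhl2. Another promoter of Fhl2, not printed, held a box that began at -31.

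Of the 43 members 37 were matched by symbol to a promoter of 300 bases in the RefSeq table, and 10 of these 37 (27.0%) held a CArG box, against 488 of 27025 genes (1.81%) in the whole table. The 10 were the 8 printed genes, Vcl and Fhl1. The motif GGAATG, read by the TEAD factors of the Hippo pathway, was found in 15 of 37 members (40.5%) and in 16.6% of all genes. The motif CAGAC, read by SMAD proteins downstream of TGF-β receptors, was found in 22 of 37 members (59.5%) and in 53.2% of all genes. Both strands were searched for each motif, and 0 of the 12 CArG boxes overlapped a TEAD or SMAD match. Acta2, Cnn1 and Lmod1 had a promoter in the table without an exact match to the CArG pattern in this window. Boxes with a G or C within the run of A and T were not searched, so such boxes may be present. Actg2, Actb, Tagln, Myh11, Csrp2 and Myocd were not in the table.

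The genotype labels were checked on Islr, whose probe did not rise well above background on the 8 KO arrays. Its log2 signal was 1.76 ± 0.07 in KO with TGF-β1, 1.45 ± 0.16 in KO with vehicle, 8.34 ± 0.08 in WT with TGF-β1 and 10.82 ± 0.06 in WT with vehicle (SD, n = 4 each). The 75th percentile of spot signal was 382 to 526 over the 16 arrays, no spot was saturated, and the lowest r between 2 arrays of the same group was 0.9959. The median SD of the members within a group was 0.0479 to 0.0757 on the log2 scale, against 0.0714 to 0.0856 for all tested genes. All 12 fibroblast markers were well above background on every array. Their summed signal was 667000 to 724000 in KO with TGF-β1 and 666000 to 706000 in KO with vehicle. In WT it was 741000 to 777000 with TGF-β1 and 634000 to 708000 with vehicle. The markers did not share a direction. With TGF-β1, 7 rose (58.3%) and 5 fell (41.7%) in KO, beside 46.6% and 35.9% of all genes. In WT 8 rose (66.7%) and 4 fell (33.3%), beside 41.3% and 27.3%. Under TGF-β1, 2 were higher (16.7%) and 6 lower (50%) in KO than in WT, beside 39.6% and 30.5%. Scaling each array to its median in place of its 75th percentile moved the median of all genes to 0.34 for TGF-β1 in KO, 0.23 for TGF-β1 in WT, 0.18 for genotype under TGF-β1 and 0.13 for the interaction. The members' median minus that of all genes was 1.5, 0.82, 0.63 and 0.51 in the same order, which a shift of whole arrays cannot change. After quantile normalization, which can change it, it was 1.15, 0.63, 0.51 and 0.41.

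TGF-β1 raised nearly the whole contractile list in both genotypes. In KO cells 41 members rose, Synpo2 fell and Fhl1 did not pass, at an adjusted p under 0.05 by limma. The background was wide, since 82.5% of all genes passed in KO and 46.6% passed as higher. The median log2 difference was 1.60 over the members and 0.10 over all genes, with a range from -2.25 to 5.12, and 32 members rose at least 2-fold. In WT cells 39 members rose, Synpo2 and Fhl1 fell and Smtn and Tln1 did not pass, where 68.6% of all genes passed and 41.3% passed as higher. The WT median was 0.89 over the members and 0.08 over all genes, with a range from -1.49 to 4.15, and 20 members rose at least 2-fold. The TGF-β1 and vehicle arrays did not overlap for 42 members in KO and 40 in WT, against 77.1% and 62.9% of all genes. Replicates 1 and 2 of every group shared one slide and replicates 3 and 4 another. On slide 1 and slide 2 taken alone, 42 and 42 members passed in KO and 41 and 37 in WT.

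**Figure D1:**
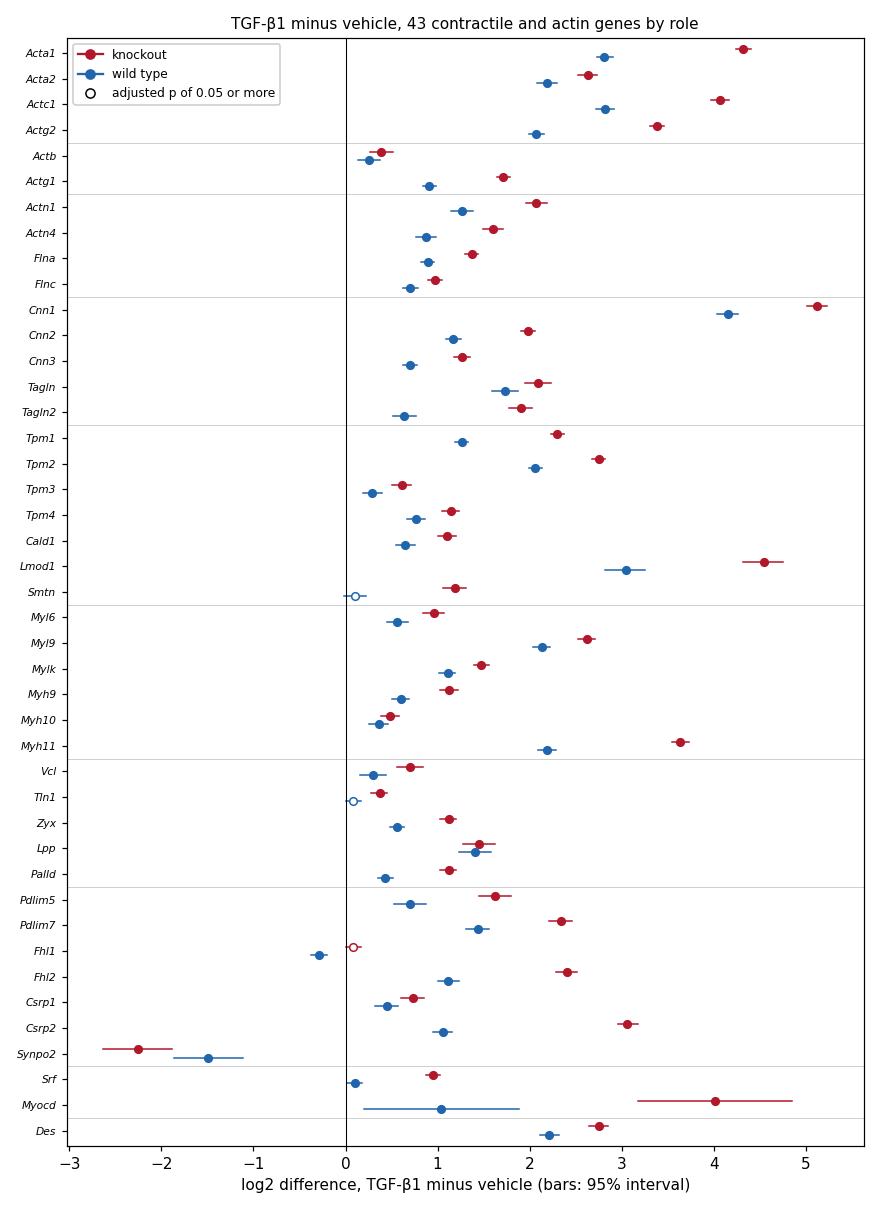
Log2 difference, TGF-β1 minus vehicle, for each of the 43 members grouped by role, in KO cells (red, upper) and WT cells (blue, lower); bars are 95% intervals from the fit and open circles did not pass the test. The KO point lies to the right of the WT point for every member that rose in both, and Synpo2 lies left of 0 in both.

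The muscle actins were among the largest risers. Acta1, the skeletal muscle α-actin, had log2 signals of 14.45, 14.34, 14.44 and 14.46 in KO with TGF-β1, 10.10, 10.17, 10.06 and 10.07 in KO with vehicle, 12.85, 12.80, 12.78 and 12.87 in WT with TGF-β1 and 9.95, 10.07, 10.02 and 10.01 in WT with vehicle. The vehicle arrays of both genotypes overlapped, and the KO arrays with TGF-β1 lay above every WT array with TGF-β1. The log2 rise was 4.32 ± 0.04 (SE) in KO, a 20-fold change, and 2.81 ± 0.04 in WT, a 7.02-fold change, with adjusted p of 4.06e-19 and 5.07e-16. Actc1, the cardiac α-actin, read 15.81, 15.80, 15.81 and 15.85 in KO with TGF-β1, 11.88, 11.67, 11.76 and 11.70 in KO with vehicle, 14.52, 14.41, 14.43 and 14.47 in WT with TGF-β1 and 11.60, 11.61, 11.67 and 11.70 in WT with vehicle. Its rise was 16.7-fold in KO and 7.04-fold in WT. Acta2, the smooth muscle α-actin by which myofibroblasts are recognised, read 17.93, 17.90, 17.94 and 18.07 in KO with TGF-β1, 15.26, 15.32, 15.35 and 15.40 in KO with vehicle, 17.36, 17.41, 17.44 and 17.44 in WT with TGF-β1 and 15.12, 15.17, 15.30 and 15.30 in WT with vehicle. Its brightest probe rose by a log2 difference of 2.63 ± 0.05 in KO and 2.19 ± 0.05 in WT, the smallest KO rise of the 4 muscle actins by brightest probe, while its dimmest probe rose by 4.17 in KO. Actg2, the enteric smooth muscle γ-actin, rose 10.4-fold in KO and 4.20-fold in WT. The probe sequences are not in the files used here, so binding of a probe to the RNA of a closely related actin was not tested.

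The cytoplasmic actins moved less. Actb, β-actin, had log2 signals of 17.76, 17.77, 17.79 and 17.99 in KO with TGF-β1, 17.43, 17.44, 17.49 and 17.38 in KO with vehicle, 17.59, 17.66, 17.66 and 17.64 in WT with TGF-β1 and 17.42, 17.24, 17.41 and 17.49 in WT with vehicle. Its rise of 0.39 ± 0.06 in KO and 0.25 ± 0.06 in WT passed the test (adjusted p = 1.23e-05 and 0.00127) but was 0.02 and 0.07 and did not pass after quantile normalization. Actg1, γ-actin, read 17.24, 17.23, 17.22 and 17.32 in KO with TGF-β1, 15.54, 15.56, 15.53 and 15.54 in KO with vehicle, 16.55, 16.55, 16.50 and 16.55 in WT with TGF-β1 and 15.56, 15.65, 15.63 and 15.66 in WT with vehicle. It rose 3.27-fold in KO and 1.88-fold in WT, so Actb and Actg1, which encode nearly identical proteins, gave unlike differences on these probes. Among the crosslinkers, α-actinin 1 (Actn1), which ties actin filaments into bundles, rose 4.21-fold in KO and 2.40-fold in WT, and α-actinin 4 (Actn4) rose 3.04-fold and 1.83-fold. Filamin A (Flna), which joins filaments at an angle, rose 2.59-fold in KO and 1.86-fold in WT, and the muscle-type filamin Flnc rose 1.96-fold and 1.63-fold.

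Calponins and transgelins, proteins that bind along the actin filament, gave the largest rise of the list. Cnn1, calponin of smooth muscle, had log2 signals of 17.23, 17.17, 17.23 and 17.39 in KO with TGF-β1, 12.02, 12.18, 12.13 and 12.21 in KO with vehicle, 15.71, 15.72, 15.79 and 15.73 in WT with TGF-β1 and 11.61, 11.53, 11.65 and 11.60 in WT with vehicle. All 4 groups lay apart, KO with vehicle above WT with vehicle included. The rise was 34.8-fold in KO and 17.7-fold in WT (adjusted p = 1.5e-18 and 1.54e-16). Tagln, transgelin or SM22α, read 17.89, 17.95, 18 and 18.10 in KO with TGF-β1, 15.84, 15.89, 15.95 and 15.91 in KO with vehicle, 17.35, 17.52, 17.50 and 17.48 in WT with TGF-β1 and 15.66, 15.57, 15.86 and 15.83 in WT with vehicle. It rose 4.25-fold in KO and 3.32-fold in WT. The broadly expressed relatives followed at smaller size: Cnn2 rose 3.94-fold in KO and 2.25-fold in WT, Cnn3 2.40-fold and 1.63-fold, and Tagln2 3.72-fold and 1.56-fold.

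All 7 thin filament regulators rose in KO and 6 of 7 in WT, beside 46.6% and 41.3% of all genes. Lmod1, leiomodin 1, which nucleates actin filaments in smooth muscle, read 8.40, 8.52, 8.36 and 8.45 in KO with TGF-β1, 4.21, 3.91, 3.68 and 3.78 in KO with vehicle, 6.56, 6.60, 6.76 and 6.75 in WT with TGF-β1 and 3.63, 3.48, 3.59 and 3.83 in WT with vehicle. The probe was well above background on 3 of 4 KO vehicle arrays and on 1 of 4 WT vehicle arrays, so its vehicle levels are near the limit of detection. The fitted rise was 4.54 ± 0.10 in KO and 3.04 ± 0.10 in WT. The tropomyosins, which lie along the filament and govern access of myosin, rose in the order Tpm2, Tpm1, Tpm4 and Tpm3 in both genotypes: by 6.73-fold, 4.91-fold, 2.20-fold and 1.53-fold in KO and by 4.17-fold, 2.40-fold, 1.70-fold and 1.23-fold in WT. The Tpm3 difference in WT was 0.29 and turned to -0.07 after quantile normalization. Caldesmon (Cald1), an inhibitor of actomyosin, rose 2.15-fold in KO and 1.57-fold in WT. Smoothelin (Smtn), a late marker of contractile smooth muscle, averaged 13.66 ± 0.07 in KO with TGF-β1, 12.47 ± 0.10 in KO with vehicle, 12.69 ± 0.06 in WT with TGF-β1 and 12.59 ± 0.10 in WT with vehicle (SD, n = 4 each). It rose 2.27-fold in KO, while the WT difference of 0.10 did not pass (adjusted p = 0.139), overlapped between the groups and was -0.07 after quantile normalization and in the authors' deposited value table. The second Smtn probe did pass as higher in WT (0.15, adjusted p = 0.0198).

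Among the motor proteins, Myh11, the smooth muscle myosin heavy chain, read 10.96, 11.02, 10.91 and 10.93 in KO with TGF-β1, 7.28, 7.37, 7.35 and 7.29 in KO with vehicle, 9.21, 9.24, 9.27 and 9.24 in WT with TGF-β1 and 6.98, 7, 7.04 and 7.19 in WT with vehicle. The groups did not overlap in any of the 4 pairs compared. It rose 12.4-fold in KO and 4.56-fold in WT. The nonmuscle heavy chains moved less, Myh9 by 2.18-fold in KO and 1.51-fold in WT, and Myh10 by 1.39-fold and 1.28-fold. Of the light chains, Myl9, the regulatory chain whose phosphorylation switches on contraction, rose 6.13-fold in KO and 4.37-fold in WT, and the essential chain Myl6 rose 1.94-fold and 1.48-fold. Mylk, the kinase that phosphorylates the regulatory chain, rose 2.78-fold in KO and 2.15-fold in WT. Desmin (Des), the muscle intermediate filament protein, read 11.23, 11.10, 11.29 and 11.33 in KO with TGF-β1, 8.43, 8.48, 8.53 and 8.52 in KO with vehicle, 10.63, 10.56, 10.59 and 10.66 in WT with TGF-β1 and 8.37, 8.46, 8.44 and 8.32 in WT with vehicle. It rose 6.72-fold in KO and 4.64-fold in WT.

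All 5 focal adhesion proteins rose in KO and 4 of 5 in WT, beside 46.6% and 41.3% of all genes. By brightest probe each rise was less than 3-fold. Lpp, a LIM protein related to zyxin, read 13.51, 13.53, 13.27 and 13.56 in KO with TGF-β1, 12.12, 11.97, 11.95 and 12 in KO with vehicle, 13.16, 13.05, 12.96 and 13.24 in WT with TGF-β1 and 11.75, 11.68, 11.53 and 11.83 in WT with vehicle. By this probe the 2 genotypes gave close rises, 2.74-fold in KO and 2.65-fold in WT. The second Lpp probe rose by log2 differences of 1.91 in KO and 1.5 in WT. Palladin (Palld), an actin scaffold, read 15.55, 15.62, 15.61 and 15.63 in KO with TGF-β1, 14.42, 14.48, 14.49 and 14.54 in KO with vehicle, 14.63, 14.71, 14.76 and 14.70 in WT with TGF-β1 and 14.27, 14.18, 14.30 and 14.32 in WT with vehicle. It rose 2.17-fold in KO and 1.35-fold in WT. Zyxin (Zyx) rose 2.17-fold and 1.47-fold, and vinculin (Vcl) 1.63-fold and 1.23-fold. Talin 1 (Tln1), which links integrins to actin, rose 1.29-fold in KO and had a difference of 0.08 in WT that did not pass (adjusted p = 0.0659). After quantile normalization its differences were -0.23 in KO and -0.27 in WT, so the direction of Tln1 depends on the scaling.

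**Figure D2:**
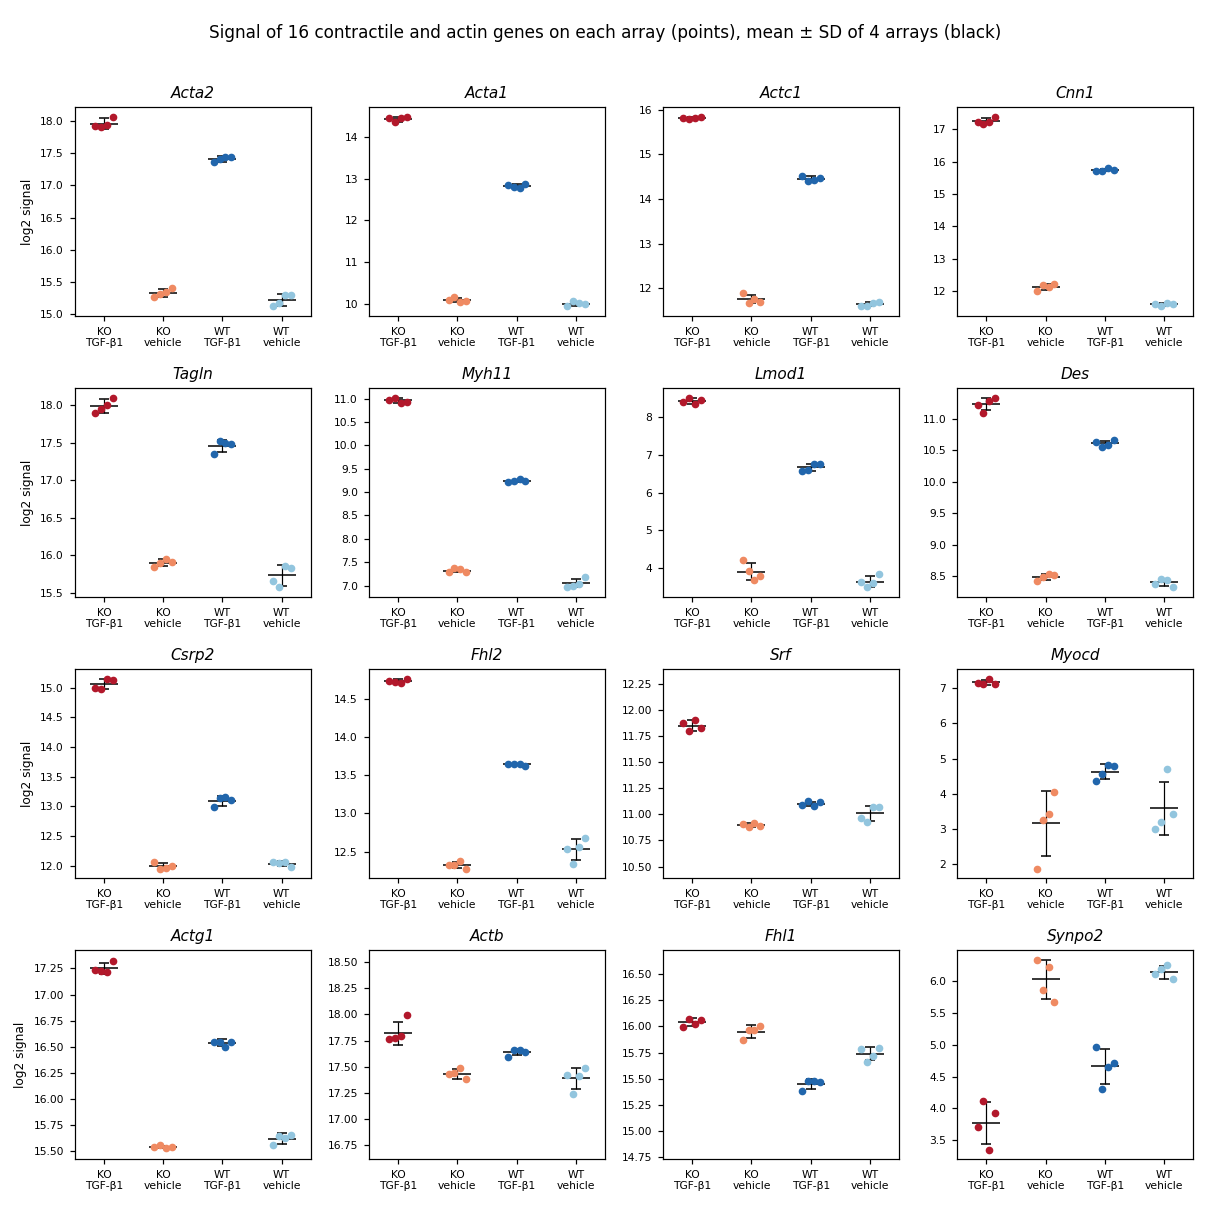
Log2 signal of 16 members on every array (points) with the mean and SD of 4 arrays (black), in the order KO TGF-β1, KO vehicle, WT TGF-β1 and WT vehicle; each panel has its own vertical axis, so levels are not compared between panels. The KO TGF-β1 arrays have the highest mean in every panel but Synpo2, where they have the lowest.

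The LIM and scaffold proteins held the members that departed from the rest. Csrp2, a smooth muscle LIM protein, read 14.99, 14.98, 15.15 and 15.12 in KO with TGF-β1, 12.06, 11.95, 11.96 and 12 in KO with vehicle, 12.98, 13.13, 13.15 and 13.11 in WT with TGF-β1 and 12.06, 12.04, 12.06 and 11.97 in WT with vehicle. It rose 8.35-fold in KO and 2.08-fold in WT from vehicle levels that overlapped. Fhl2, a LIM coregulator that can bind Srf, read 14.73, 14.72, 14.70 and 14.76 in KO with TGF-β1, 12.33, 12.33, 12.38 and 12.28 in KO with vehicle, 13.65, 13.65, 13.64 and 13.62 in WT with TGF-β1 and 12.54, 12.34, 12.56 and 12.68 in WT with vehicle. Its rise was 5.27-fold in KO and 2.16-fold in WT. Fhl1, its relative of striated muscle, read 15.99, 16.07, 16.02 and 16.06 in KO with TGF-β1, 15.87, 15.97, 15.97 and 16 in KO with vehicle, 15.38, 15.48, 15.48 and 15.47 in WT with TGF-β1 and 15.78, 15.66, 15.72 and 15.79 in WT with vehicle. Fhl1 fell by 0.29 ± 0.04 in WT (adjusted p = 1.57e-05), while its KO difference of 0.08 did not pass (adjusted p = 0.0676) and was -0.52 after quantile normalization. Pdlim7 rose 5.05-fold in KO and 2.70-fold in WT, Pdlim5 3.08-fold and 1.62-fold, and Csrp1 1.65-fold and 1.36-fold. Pdlim5 and Pdlim7 are PDZ and LIM proteins that dock on α-actinin.

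Synpo2, an actin-bundling protein of the Z-disc also called myopodin, went the other way. It read 3.70, 4.12, 3.35 and 3.92 in KO with TGF-β1, 6.34, 5.87, 6.22 and 5.67 in KO with vehicle, 4.97, 4.30, 4.65 and 4.71 in WT with TGF-β1 and 6.11, 6.20, 6.25 and 6.03 in WT with vehicle. No KO array with TGF-β1 was well above background, while all 12 other arrays were. Synpo2 was therefore at least 3.91-fold lower with TGF-β1 in KO (adjusted p = 9.73e-09), and it was 2.80-fold lower in WT (adjusted p = 2.47e-06). Its 2 probes agreed in direction in both genotypes.

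The 2 transcription regulators, Srf and Myocd, rose far more in KO than in WT. Srf read 11.87, 11.80, 11.90 and 11.83 in KO with TGF-β1, 10.91, 10.88, 10.92 and 10.89 in KO with vehicle, 11.09, 11.13, 11.08 and 11.12 in WT with TGF-β1 and 10.96, 10.93, 11.07 and 11.07 in WT with vehicle. It rose 1.93-fold in KO (0.95 ± 0.04, adjusted p = 3.23e-12) and 1.07-fold in WT (0.10 ± 0.04, adjusted p = 0.0337). The small WT rise did not pass without WT TGF-β1 replicate 2 or 4 (adjusted p = 0.0802 and 0.0715) or without WT vehicle replicate 1 or 2 (adjusted p = 0.0958 and 0.105), nor after normexp or quantile normalization (adjusted p = 0.119 and 0.856). Myocd, the coactivator that drives the smooth muscle programme, read 7.14, 7.13, 7.27 and 7.12 in KO with TGF-β1, 1.88, 3.26, 3.43 and 4.05 in KO with vehicle, 4.36, 4.55, 4.81 and 4.79 in WT with TGF-β1 and 3.01, 3.20, 4.71 and 3.43 in WT with vehicle. Only 1 of 4 arrays in each vehicle group was well above background, and the WT groups overlapped. The fitted rise was 4.01 ± 0.39 in KO (adjusted p = 1.56e-07) and 1.04 ± 0.39 in WT (adjusted p = 0.0292). The WT call ended without any one of 5 arrays, WT TGF-β1 replicates 3 and 4 and WT vehicle replicates 1, 2 and 4, with adjusted p of 0.062 to 0.09.

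Without TGF-β1 the genotypes differed little in these genes. In vehicle 8 members were higher in KO (Cnn1, Tpm2, Myl9, Mylk, Myh11, Lpp, Palld and Fhl1), Fhl2 was lower and 34 did not pass, so 20.9% of the members passed against 13.2% of all genes. Of all genes 7.07% passed as higher and 6.16% as lower. The median difference was 0.06 over the members and 0.03 over all genes, and no member reached 2-fold. Among the members that passed, Cnn1 had the largest difference, 1.45-fold higher in KO (0.54 ± 0.05, adjusted p = 9.18e-06), followed by Lpp at 1.24-fold and Myh11 at 1.21-fold. The arrays of the 2 genotypes did not overlap for 11 members, against 18.8% of all genes. Fhl2 passed at -0.20 (adjusted p = 0.0247) although the arrays overlapped, and it did not pass without KO vehicle replicate 2 or 4 or without WT vehicle replicate 1, 3 or 4 (adjusted p = 0.0521 to 0.0694). Lpp did not pass without WT vehicle replicate 3 (adjusted p = 0.0568). The count of 8 higher and 1 lower became 10 higher and 0 lower with scaling to the array median. It became 12 higher and 2 lower when the slide was a block in the fit. On slide 1 alone 1 member passed and on slide 2 alone 4 passed, each with 2 arrays per group.

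With TGF-β1 every member differed between the genotypes by its brightest probe: 42 were higher in KO and Synpo2 was lower. Of all genes 70.2% passed, 39.6% as higher and 30.5% as lower. The arrays of the 2 genotypes did not overlap for any of the 43, against 64.7% of all genes. The median difference was 0.69 over the members and 0.06 over all genes, and 11 members were at least 2-fold higher in KO. On slide 1 alone 40 members passed and on slide 2 alone 41. They included Csrp2 at 3.91-fold (1.97 ± 0.05, adjusted p = 6.4e-14), Lmod1 at 3.39-fold, Myh11 at 3.28-fold, Acta1 at 3.02-fold and Cnn1 at 2.85-fold. Myocd was 5.81-fold higher in KO (2.54 ± 0.39, adjusted p = 3.81e-05). The cytoplasmic Actb (1.14-fold) and Myh10 (1.11-fold) had the smallest differences, and after quantile normalization these were -0.06 and -0.10 and so turned in sign. Synpo2 was at least 1.51-fold lower in KO (-0.88 as fitted, adjusted p = 0.000361), a call that was lost with normexp background correction (-0.06, adjusted p = 0.471).

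**Figure D3:**
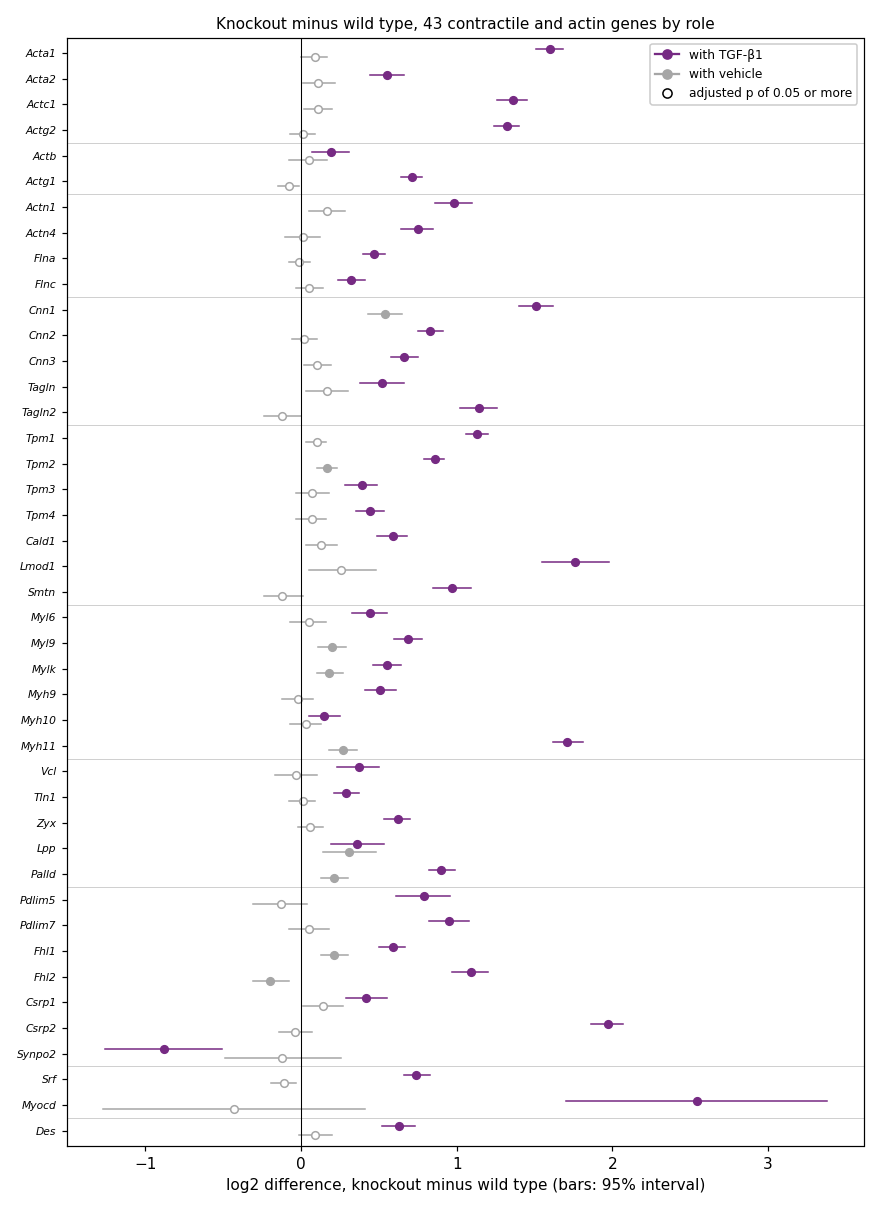
Log2 difference, KO minus WT, for each of the 43 members grouped by role, with TGF-β1 (purple, upper) and with vehicle (grey, lower); bars are 95% intervals from the fit and open circles did not pass the test. With vehicle most members sit near 0, and with TGF-β1 all but Synpo2 lie to the right of 0.

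The response itself was compared between genotypes by the interaction, the TGF-β1 difference in KO minus that in WT. It passed as higher for 39 members and lower for Synpo2, and Actb, Myh10 and Lpp did not pass. The Synpo2 call was lost with normexp (-0.01, adjusted p = 0.919), in the authors' deposited value table (adjusted p = 0.0595) and with the mean over probes (adjusted p = 0.315), and its second probe gave -0.13 (adjusted p = 0.886). Its signal in KO with TGF-β1 was not well above background, so its fitted interaction is no exact value. Of all genes 58.2% passed and 31.7% passed as higher. The median interaction was 0.56 over the members and 0.05 over all genes. Of the 39 members that rose in both genotypes, 39 had a larger log2 rise in KO, by a ratio of 1.65 at the median, from 1.03 in Lpp to 9.81 in Srf. The Srf ratio divides by the WT rise of 0.10, whose call was lost without any one of 4 arrays and under both normexp and quantile normalization. Smtn and Tln1 passed the TGF-β1 test in KO and not in WT, and Fhl1 passed in WT and not in KO. All 3 had a positive interaction that passed, Smtn with 1.09 ± 0.08 (adjusted p = 3.53e-08). The largest interactions were those of Myocd (2.97 ± 0.56, adjusted p = 0.000335), Csrp2 (2.00 ± 0.07, adjusted p = 8.19e-12), Acta1 (1.51 ± 0.06), Lmod1 (1.5 ± 0.14) and Myh11 (1.44 ± 0.06). The vehicle signal of Myocd and Lmod1 was near background, so their fitted interactions are no exact values. The 4 muscle actins had interactions of 0.44 to 1.51 and the 6 myosin chains and kinase 0.12 to 1.44. For Lpp the interaction was 0.05 with a 95% interval from -0.19 to 0.29. For Actb it was 0.14 with an interval from -0.03 to 0.31, and for Myh10 0.12 with an interval from -0.02 to 0.26. These are values of the brightest probes. The second Lpp probe had an interaction of 0.41 that passed (limma, adjusted p = 0.00206 over all kept probes), and the second Myh10 probe had 0.06, which did not pass. After quantile normalization 30 interactions passed as higher and 1 as lower, and those of Lpp, Actb and Myh10 turned in sign. On slide 1 alone 33 interactions passed and on slide 2 alone 39, with medians of 0.58 and 0.59.

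Genes with several probes allowed a second reading. Of the 43 members 20 had 1 probe and 23 had several, 76 probes in all, and all 76 passed the signal filter. For TGF-β1 in KO all probes of a gene passed in the same direction for 21 of 23 genes, in WT for 19, for genotype under TGF-β1 for 20 and for the interaction for 17, with p adjusted over all kept probes. For genotype with vehicle this held for 1 of 23. There the dimmer probes of Actg1 (-0.19 and -0.40) and of Pdlim5 (-0.49 and -0.38) passed as lower in KO while the brightest did not pass, and the second Lpp probe differed by 0.03 and did not pass. The 33 probes dimmer than the one that stands for its gene gave a larger interaction in 20 cases and a smaller one in 13. Acta2 and Tpm1 had interactions that differed by at least 1 between probes. The Acta2 probe with the brightest signal had an interaction of 0.44, the next 1.06 and the dimmest 1.58, and the TGF-β1 difference in KO was 2.63, 2.82 and 4.17 in that order, all of one transcript accession. The second Cnn1 probe gave 5.84 in KO and 4.33 in WT, beside 5.12 and 4.15 for the first, with an interaction of 1.51 beside 0.97, and the 3 Myh11 probes gave 3.63, 3.41 and 3.52 in KO.

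Other genes had a probe that disagreed. One of 3 Mylk probes changed by 0.05 with TGF-β1 in KO, which did not pass, and rose by 0.45 in WT, for an interaction of -0.40 (adjusted p = 0.000126), while the other 2 had interactions of 0.37 and 0.30. The dimmest of 3 Actg1 probes fell by 0.40 in WT and rose by 0.24 in KO. The dimmest of 5 Tpm3 probes fell by 0.19 in KO, where the other 4 rose by 0.58 to 0.67. Between the genotypes with TGF-β1, this Tpm3 probe (-0.27, adjusted p = 0.0029) and the odd Mylk probe (-0.22, adjusted p = 0.000709) passed as lower in KO. The second Synpo2 probe differed by -0.31 there and did not pass (adjusted p = 0.574). Tropomyosins also differed by accession. The 3 Tpm1 probes, each designed on its own accession, rose by 2.30, 0.80 and 2.73 in KO, and the 2 Tpm2 probes rose by 2.75 and 1.58. Which exons these probes cover is not given in the files used here, so a difference between transcripts and a difference between probes cannot be told apart.

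**Figure D4:**
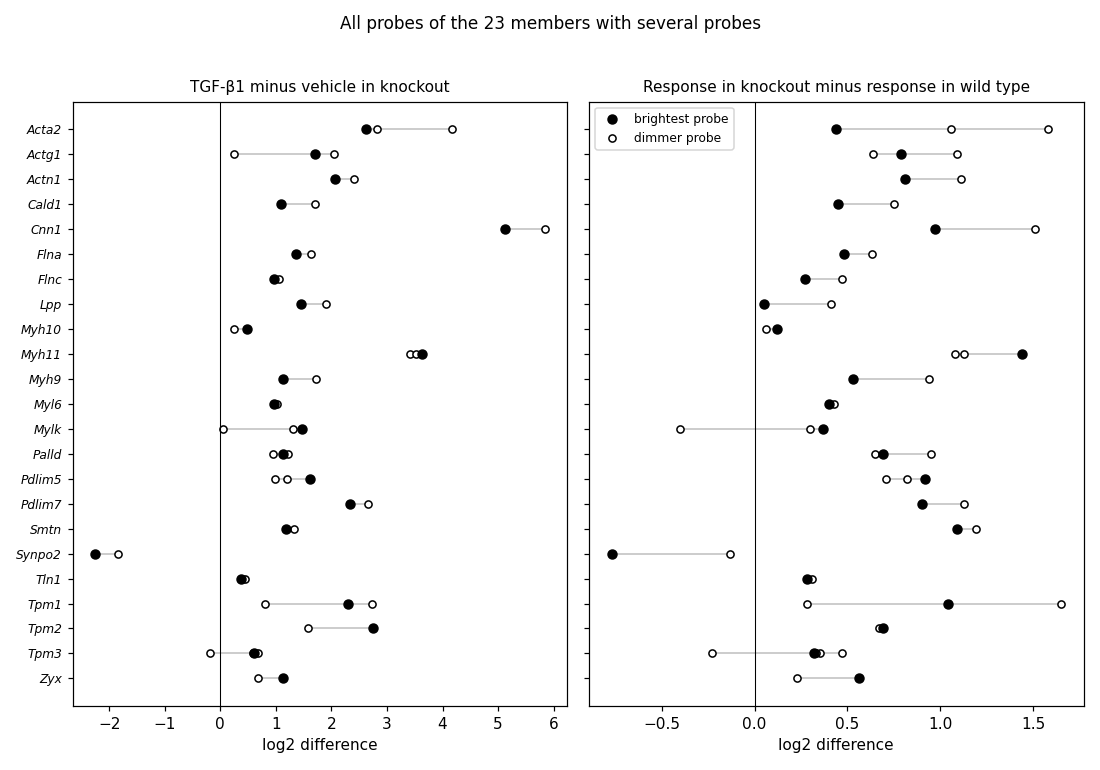
All probes of the 23 members with several, with the brightest filled and dimmer ones open: left, the log2 difference TGF-β1 minus vehicle in KO; right, the response in KO minus the response in WT. The 3 Acta2 probes spread from 0.44 to 1.58 on the right, and one Mylk probe lies at -0.40.

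Most members rose whether or not the promoter window held a CArG box. With TGF-β1 in KO 9 of the 10 members with a box rose, with a median of 1.84, and 26 of the 27 members with a promoter and no box rose, with a median of 1.37. In WT the medians were 1.01 with a box and 0.70 without. The median interaction was 0.80 with a box and 0.54 without. Among other tested genes the 195 with a box had a median of 0.31 in KO with 57.4% passing as higher, and the 11942 without one had 0.11 with 46.8%. The member with a box that did not rise was Fhl1. These are descriptions of exact matches in a window near the start site. They say nothing of boxes with a G or C within the run, or of distant or intronic boxes.

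The list of the MRTF and SRF system mixes coactivators and partners of Srf with other genes, among them immediate early genes that Srf controls. Of its 19 tested genes 12 rose (63.2%) and 7 fell (36.8%) with TGF-β1 in KO, beside 46.6% and 35.9% of all genes. In WT 13 rose (68.4%) and 3 fell (15.8%), beside 41.3% and 27.3% of all genes. The MRTF coactivators split, Mrtfa rising by 0.37 in KO and 0.22 in WT and Mrtfb falling by 0.64 and 0.32. Itga5, the fibronectin receptor subunit, rose by 3.27 in KO and 1.09 in WT, while Itga1, a collagen receptor subunit of the same list, fell by 0.41 in KO and differed by -0.01 in WT, which did not pass. Tgfb1i1, a focal adhesion LIM protein, rose by 1.93 in KO and 1.22 in WT. Immediate early genes, which Srf controls with its ternary complex partners, did not share a direction. Egr1 fell by 1.53 in KO and rose by 0.25 in WT, and Fos fell by 2.62 in KO and rose by 0.22 in WT. Fosb fell by 0.43 in KO and by 1.57 in WT. Under TGF-β1, Egr1 and Fos were lower in KO than in WT by log2 differences of -1.83 and -2.29, while Fosb, Itga5 and Ccn2 were higher by 1.08, 2.12 and 1.36.

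Of 36 actin turnover genes 29 rose (80.6%) and 3 fell in KO, beside 46.6% and 35.9% of all genes, and 28 rose (77.8%) and 1 fell in WT, beside 41.3% and 27.3%. Their medians were 0.77 and 0.33. Enah, which promotes filament elongation, rose by 3.07 in KO and 1.49 in WT, and its interaction was 1.57 ± 0.08. The filament-severing Cfl2 rose by 1.68 and 1.07, and Limk2, the kinase that inactivates cofilins, rose by 1.71 and 0.82. Of 27 integrin adhesion partners 20 rose (74.1%) and 4 fell (14.8%) in KO, and 17 rose (63.0%) and 6 fell (22.2%) in WT, to be read beside the same shares of all genes. Pdlim1, an α-actinin-binding relative of Pdlim5 and Pdlim7, rose by 2.84 in KO and had an interaction of 1.77 ± 0.06, and Lims2, part of the integrin-linked kinase complex, rose by 2.57 in KO and 1.83 in WT.

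Of 12 caveolar and smooth muscle channel genes 5 rose (41.7%) and 6 fell (50%) in KO, and 4 rose (33.3%) and 6 fell (50%) in WT. These shares of risers were no higher than the 46.6% and 41.3% of all genes. The shares that fell were above the 35.9% and 27.3% of all genes. Kcnmb1, the β1 subunit of the large-conductance potassium channel of smooth muscle, averaged 9.16 ± 0.10 in KO with TGF-β1, 3.32 ± 0.56 in KO with vehicle, 7.15 ± 0.09 in WT with TGF-β1 and 2.25 ± 0.70 in WT with vehicle (SD, n = 4 each). It was well above background on 1 of 4 KO vehicle arrays and on no WT vehicle array, and it was at least 11.4-fold higher with TGF-β1 in WT. Its interaction of 0.94 did not pass (adjusted p = 0.0633).

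Markers of other cell types moved with TGF-β1 too, and in bulk cultures fewer cells of a type and less RNA per cell cannot be told apart. Of the 13 smooth muscle and pericyte markers, of which Kcnmb1 also stands in the channel list, 6 rose (46.2%) and 5 fell (38.5%) in KO, near the 46.6% and 35.9% of all genes. In WT 4 rose (30.8%) and 7 fell (53.8%), beside 41.3% and 27.3% of all genes. Their summed signal was 27400 to 28700 in KO with TGF-β1, 27800 to 29700 in KO with vehicle, 29700 to 32700 in WT with TGF-β1 and 25000 to 26900 in WT with vehicle. Of 26 striated muscle markers 13 failed the signal filter, among them the lineage factors Myod1, Myog, Myf5 and Myf6, Ttn, Ckm and Nkx2-5. The striated sum was 1560 to 1690 in KO with TGF-β1, 2310 to 2470 in KO with vehicle, 1540 to 1700 in WT with TGF-β1 and 2610 to 2690 in WT with vehicle. The macrophage and leukocyte sum was 70800 to 77800 in KO with TGF-β1, 133000 to 136000 in KO with vehicle, 94500 to 101000 in WT with TGF-β1 and 159000 to 184000 in WT with vehicle. Endothelial and mesothelial sums were lower with TGF-β1 in both genotypes. In KO they were 4360 to 4830 and 12700 to 14600 with TGF-β1, against 10000 to 10300 and 28400 to 28600 with vehicle. In WT they were 6120 to 6610 and 26800 to 27800 with TGF-β1, against 10800 to 11200 and 31400 to 33400 with vehicle. All 10 endothelial markers fell in both genotypes. Of 7 tested mesothelial markers 0 rose and 6 fell (85.7%) in KO, and 2 rose (28.6%) and 4 fell (57.1%) in WT. Of all genes 46.6% rose and 35.9% fell in KO, and 41.3% rose and 27.3% fell in WT. The epithelial sum was higher with TGF-β1, at 11100 to 12200 in KO with TGF-β1 against 7030 to 7380 in KO with vehicle, and at 11200 to 12000 in WT with TGF-β1 against 7450 to 8430 in WT with vehicle. Its members did not share that direction. Of 8 tested, 4 rose and 3 fell in KO and 3 rose and 3 fell in WT, with no rise of 2-fold or more and 3 falls of 2-fold or more in each, and medians of -0.23 and -0.42. Those well above background on all arrays numbered 4 in KO with TGF-β1, 7 in KO with vehicle, 4 in WT with TGF-β1 and 8 in WT with vehicle. The part of these shifts in the members' differences was not tested.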

How the data were processed

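RNA of primary lung fibroblasts was measured in 4 groups of 4 arrays. The deposited scanner files hold the processed intensity of each spot, background-corrected with Agilent Feature Extraction 11.0.1.1 per the submitters' processing notes. The authors' deposited value table holds log2 values of 9933 probes, 31 members among them. On each array its values correlated with the log2 scanner values at r of at least 0.999, which does not measure a shift of a whole array. The value table was not centred, with column medians of 6.38 to 6.61. How it was normalized and how its probes were picked is not given in the sources used here.

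Spots of a probe were averaged as log2 intensity, 27 probes with outlier marks were left out, and each array was shifted to a common 75th percentile. A probe was kept where 1 or more groups had it well above background on each of their 4 arrays (33888 probes). Accessions were matched to RefSeq names (GRCm38.p6), which named 32994 of 56605 probes. The brightest kept probe stood for each of 15394 genes. No probe coordinates are printed, since the array design used another build. limma 3.58.1 in R 4.3.3 fitted 1 mean per group over all 16 arrays. Tests were 2-sided, with Benjamini-Hochberg adjustment over all genes and a threshold of 0.05. "At least N-fold" sets the brighter group's mean against the lowest signal well above background on each array of the dimmer group, or the probe's own signal if higher. In simulated data with 200 of 15394 genes changed, the fit recovered 87% of 2-fold interactions and 25% of smaller ones. For the other comparisons it recovered 89.5% to 97.2% of 2-fold changes and 61.8% to 67.5% of smaller ones. Far more genes passed in the real data, so the simulation does not measure the rate of false calls there. The number of arrays limits the precision.

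The members, gene lists and tests were chosen with earlier results of these data known. Per-array values are given for 18 members named by a fixed rule, with other members by fold. From each pathway list the named genes were among those with the smallest adjusted p in a comparison. Mrtfa, Mrtfb, Itga1 and the values of named genes in further comparisons were added after their values were seen. Alternatives covered background correction, scaling, filters, probe choice, slide, the replicate number as a block and leaving out each array. One further pathway list is not reported here.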

Additional observations from a re-analysis of the deposited data

Results flagged for a closer look

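The response to TGF-β1 differed between genotypes, by the interaction term at an adjusted p under 0.05, for 40 of the 43 members, beside 58.2% of all genes. Values are log2, the TGF-β1 difference in KO minus that in WT. Myocd stood at 2.97, Csrp2 at 2.00, Acta1 at 1.51, Lmod1 at 1.5, Myh11 at 1.44, Actg2 at 1.31, Fhl2 at 1.28, Tagln2 at 1.26, Actc1 at 1.25, Smtn at 1.09 and Tpm1 at 1.04. Between 0.5 and 1 were Cnn1 at 0.97, Pdlim5 at 0.92, Pdlim7 at 0.90, Srf at 0.85, Actn1 and Cnn2 at 0.81 each, Actg1 at 0.79, Actn4 at 0.73, Tpm2 and Palld at 0.69 each, Cnn3 and Zyx at 0.56 each, and Des and Myh9 at 0.53 each. Smaller values were those of Myl9 at 0.49, Flna at 0.48, Cald1 at 0.45, Acta2 at 0.44, Vcl and Myl6 at 0.40 each, Tpm4 at 0.38, Fhl1 and Mylk at 0.37 each, Tagln at 0.36, Tpm3 at 0.32, Tln1 and Csrp1 at 0.28 each, and Flnc at 0.27. Synpo2 was the one negative value, at -0.77 as fitted, which is not exact because its probe was not well above background in KO with TGF-β1. The Synpo2 call was lost with normexp (-0.01). The values of Myocd and Lmod1 are not exact either, because their vehicle signal was near background.

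In 8 of 172 member and group combinations 1 array lay far from the other 3 by Dixon's test at the 95% level, a share near the 1 in 20 that chance gives. In KO with TGF-β1 these were Acta1 on replicate 2 (14.34, lowest), Vcl on replicate 2 (14.43, highest), Myocd on replicate 3 (7.27, highest) and Actb on replicate 4 (17.99, highest). In WT with TGF-β1 they were Cnn2 on replicate 1 (13.67, lowest), Fhl1 on replicate 1 (15.38, lowest), Actg1 on replicate 3 (16.50, lowest) and Zyx on replicate 3 (15.63, highest). No array was the odd one for more than 2 genes.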

How the results depend on the processing

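The counts of members called for TGF-β1 in either genotype, for genotype under TGF-β1 and for the interaction stayed within 1.5 times under every alternative run. With vehicle the count of 9 became 14 when the slide was a block, and was 1 on slide 1 alone and 4 on slide 2 alone. The median for TGF-β1 in KO, 1.60, became 1.52 with normexp, 1.14 with quantile normalization, 1.84 with the array median, 1.65 in the authors' table over 31 members, 1.54 over the 40 members above background on all arrays, 1.5 with the mean over probes and 1.56 within slide 2. In WT, 0.89 became 0.65 with quantile normalization, 1.05 with the array median, 1.05 in the table and 0.83 within slide 2. Under TGF-β1, the genotype median of 0.69 became 0.50, 0.81 and 0.65 with quantile normalization, the array median and the table. The interaction median of 0.56 became 0.39, 0.65 and 0.62 with the same, and 0.73 with the mean over probes. The cause of these shifts was not tested.

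Quantile normalization turned the sign of Tln1 in KO (-0.23) and WT (-0.27), Fhl1 in KO (-0.52), Tpm3 and Smtn in WT (-0.07 each), and Lpp in the interaction (-0.16). It did so for Actb with vehicle (-0.01), with TGF-β1 (-0.06) and in the interaction (-0.05), and for Myh10 with TGF-β1 (-0.10) and in the interaction (-0.11). The authors' table gave -0.07 for Smtn in WT and -0.16 for the Lpp interaction. Between genotypes with vehicle, Myocd was 0.01 with normexp, Csrp2 0 with the array median, and Actb -0.02 within slide 2 and 0 to 0.08 leaving out 1 array. The Synpo2 interaction did not pass with normexp (-0.01, adjusted p = 0.919), in the table (-0.54, adjusted p = 0.0595) or with the mean over probes (-0.45, adjusted p = 0.315).

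Leaving out each array in turn gave 42 to 43 calls for TGF-β1 in KO, 39 to 42 in WT, 7 to 11 for genotype with vehicle, 43 for genotype with TGF-β1 and 40 to 42 for the interaction, with medians of 1.56 to 1.60, 0.86 to 0.91, 0.05 to 0.08, 0.66 to 0.71 and 0.55 to 0.59. Of 3088 such results 3064 kept their call and direction. Deviations of same-numbered arrays correlated at -0.034 to 0.218, so the replicate numbers were not taken as pairs. With the replicate number as a block 42, 42, 12, 43 and 40 members were called in the same order, with medians of 1.60, 0.89, 0.06, 0.69 and 0.56, and 190 of 193 results were unchanged. Signal near background limits Myocd, Lmod1 and Synpo2.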
